A study of Mus musculus with 12 samples.

Results

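The genes described here are the solute carriers of heart neutrophils: membrane proteins that move sugars, amino acids, lactate, nucleosides, vitamins, metals and ions across the plasma membrane and the membranes of organelles. They were chosen by name from a table of 11911 genes. A member has a symbol that starts with Slc, a family number, the letter a and a number, or that starts with Slco. Of 171 such names, 4 (Slc2a1, Slc2a3, Slc11a1 and Slc40a1) and 1 pseudogene were left out, and 166 remained. The choice used no measured value, though earlier results of these data were known when it was made. By their names, 5 of the 166 are not transporters: Slc9a3r1 and Slc9a3r2 are scaffold regulators of an ion exchanger, Slc4a1ap is an adaptor, and Slc36a3os and Slc7a6os lie on the opposite strand of a carrier gene. The pattern does not take symbols with another family letter, such as Slc35b to Slc35g.

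Neutrophils were sorted from the left ventricles of mouse (Mus musculus) hearts and their RNA was sequenced, in 6 libraries with the genotype label Control and 6 with the genotype label LOY, which the series title connects with a lost Y chromosome in the hematopoietic cells. All 12 titles name a Control bone marrow transplant and all 12 treatment labels read Control, so both groups share these labels and the genotype label alone separates them. The libraries are numbered 2, 6, 7, 8, 11 and 12 (Control) and 3, 4, 5, 10, 14 and 15 (LOY). Each was made from 800 cells that carried Ly6G, a neutrophil surface protein, CD45.2, a leukocyte allele, and red fluorescent protein, and that lacked CD64, a macrophage receptor. The labels give no mouse age, no strain and no statement that each library is a separate mouse. P-values therefore measure the spread between these libraries, part of which may be technical. Values are normalised reads, that is, a gene's reads after division by a scaling factor of the library.

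Neutrophils make much of their ATP by glycolysis, which needs sugar uptake and the export of lactate with protons. The cystine and glutamate exchanger xCT, made of Slc7a11 and the heavy chain Slc3a2, brings in cystine for glutathione, the main small antioxidant of the cell. Carriers of the Slc25 family sit in the inner mitochondrial membrane and pass ATP, phosphate, amino acids and metabolites, while zinc, copper and iron carriers supply enzymes and limit metal toxicity.

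The libraries held 6767108 to 12561174 reads. Of the Y-linked genes listed as a check of the labels, 3 were in the table, and their sum was 1032 to 1972 normalised reads in Control and 0 to 59.3 in LOY; it was above 0 in LOY 10 and LOY 14 alone among the LOY libraries. The 15 listed neutrophil markers were all in the table, with a sum of 219014 to 621407 in Control and 196996 to 396661 in LOY, although Ly6g itself, the protein used in the sort, ranged from 0 to 1039. Other cells left reads too. The sum of 15 cardiomyocyte markers was 3911 to 8703 in Control and 5903 to 66849 in LOY, with the highest value in LOY 10. The sum of 12 endothelial markers was 1181 to 4103 and 2961 to 6637, that of 10 fibroblast markers 2972 to 10540 and 5835 to 16579, and that of 12 macrophage markers 7278 to 10598 and 4074 to 14044. In the fibroblast sum, Gsn alone had a mean of 6235 of 7183 in Control and 6562 of 9991 in LOY. Dcn was above 0 in all 12 libraries, Lum in 2, and Pdgfra and Tcf21 in 1 each. The sum of 8 B cell markers was 3263 to 12353 in Control and 2996 to 8887 in LOY. That of 8 red cell and platelet markers was 13.6 to 10063 and 165 to 7385. None of the listed markers in the table was at 0 in all libraries, but the same held for every gene of the table. The part of these cells in the results below was not tested except where a value is given beside the result. In bulk libraries, fewer cells of a type and less RNA per cell cannot be told apart.

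Most solute carriers were read in some libraries and not in others. Only 33 of the 166 (19.9%) were above 0 in all 12 libraries, against 34.6% of all genes in the table. A further 69 were above 0 in 7 to 11 libraries, and 64 (38.6%, against 28.3% of all genes) in 6 or fewer, 9 of them in 1 library. At 10 normalised reads or more, 19 members were read in all 12 libraries, and at 100 or more, 15. Of all member values, 36.3% were 0 and 37.6% were 100 or more, with 9.99% from 10 to under 100. Over all genes of the table these shares were 27.9%, 43.3% and 14.1%, so values at either end outnumbered those from 10 to under 100 in the whole table too. The number of members above 0 per library ran from 81 in LOY 4, which had the fewest reads (6767108), to 122 in Control 6 and Control 11, which had the most reads (10909348 and 12561174). Between these ends the order differed: Control 7, with 10193931 reads, had 93 members above 0, and Control 8, with 7176250, had 108. The part of depth in this count was not tested.

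**Figure D1:**
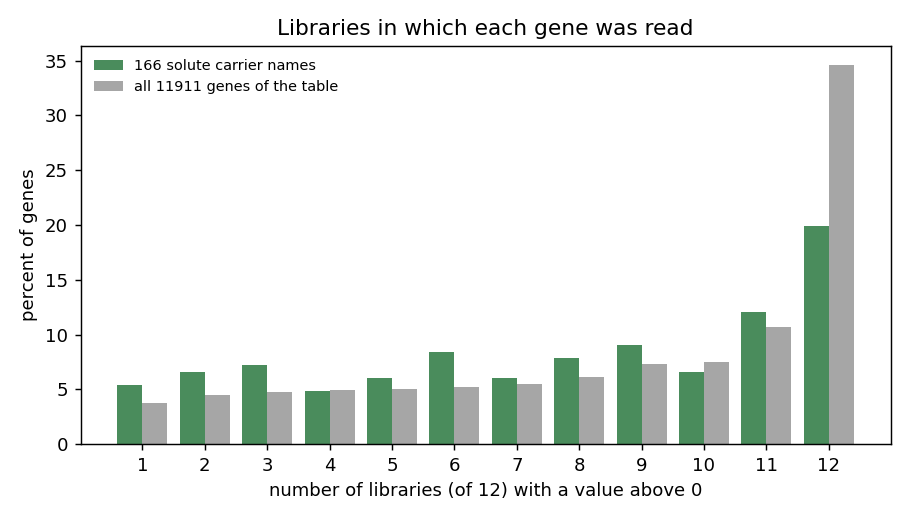
Percent of genes (vertical axis) by the number of libraries, of 12, with a value above 0 (horizontal axis), for the 166 solute carrier names (green) and all 11911 genes (grey). The bar at 12 libraries is 19.9% for the solute carriers and 34.6% for all genes.

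A few carriers held most of the reads. Slc16a3 alone gave 15.1% of the reads of the 166 members, the 5 members of highest mean 36.3%, the first 10 51.0% and the first 25 72.6%. All members together made up 0.455% (Control 8) to 0.860% (LOY 10) of the normalised reads of a library. By class, the 33 mitochondrial carriers gave 24.0% of the member reads, the 25 amino acid and peptide transporters 18.8%, the 13 monocarboxylate, citrate and sulphate transporters 17.8% and the 13 sugar transporters 7.25%. Reads per gene grow with the length of the transcript, so levels between genes were compared per kilobase of exon. On that scale Slc25a5 came first (2010 mean normalised reads per kilobase), then Slc16a3 (1520), Slc9a3r1 (811), Slc2a6 (773), Slc25a4 (501), Slc25a3 (490), Slc3a2 (381), Slc36a3os (370), Slc25a11 (347) and Slc44a2 (321). With the length of the longest transcript in its place, Slc25a5 (2668) and Slc16a3 (1865) stayed in the first positions and Slc44a2 (682) moved to the fifth.

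**Figure D2:**
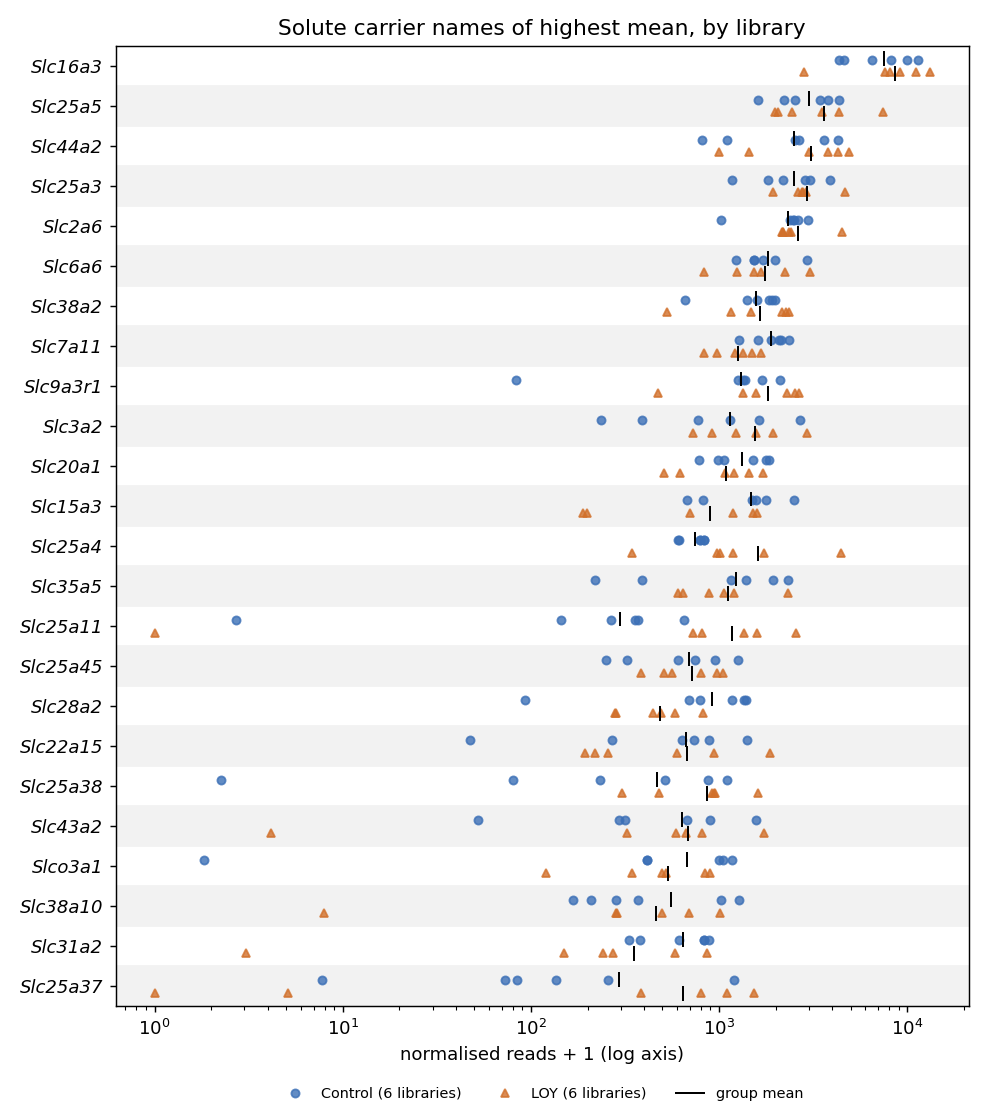
Normalised reads plus 1 on a log axis for 24 of the 25 solute carrier names of highest mean, with 1 circle per Control library, 1 triangle per LOY library and a bar at each group's mean. The libraries lie close together for the members at the top, apart from single ones such as Control 8 for Slc9a3r1 (82.4), while several members from Slc25a11 down include libraries at or near 0.

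The comparison of LOY with Control asks which genes differ in heart neutrophils between the genotypes. It was fitted over the whole table with limma on log2(normalised reads + 1), for the 6951 genes that reached 10 normalised reads in 6 or more libraries; fold changes below are LOY minus Control on that log2 scale, with their standard error (SE). Of the 166 members, 80 passed this filter and 86 did not. No member passed an adjusted p of 0.05 in limma, where 0.0288% of all tested genes did (2 of 6951), and the lowest adjusted p of a member was 0.997. At an unadjusted limma p below 0.05 there were 2 members, Slc35a4 and Slc7a11, both lower in LOY, where 4.37% of all tested genes passed. The edgeR quasi-likelihood test on the recovered reads called 0 of 80 members after adjustment and 1 at an unadjusted p below 0.05, a level that 1.84% of its genes passed. DESeq2 called 9 members, the same number as the authors' deposited table. For 0 of 166 members did the 6 LOY values lie wholly above or below the 6 Control values, which held for 0.134% of all genes.

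The tested members split into 47 higher and 33 lower estimates in LOY, with a median of 0.16, against a median of 0.0081 and 50.4% higher over all tested genes. This split was not stable. With edgeR it was 42 and 38, with a median of 0.052. Without Control 2 it was 35 and 37, with a median of -0.082. Without LOY 15 it was 44 and 33, with a median of 0.30. None of the single estimates of the main fit passed the test. Their precision was low: the median SE was 1.77, and the 95% interval lay within 1 log2 unit either way for 6 of the 80 members (7.5%) and for 5.68% of all tested genes. Those 6 were among the members above 0 in all 12 libraries, whose median SE was 0.69. In simulated counts of this design, limma recovered 0 of 200 genes changed 2-fold (192 tested) and 50 of 200 changed 8-fold (186 tested). A 2-fold difference of a carrier would thus in general not have been called. The spread between simulated libraries was capped, so these rates need not equal those in the real libraries.

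**Figure D3:**
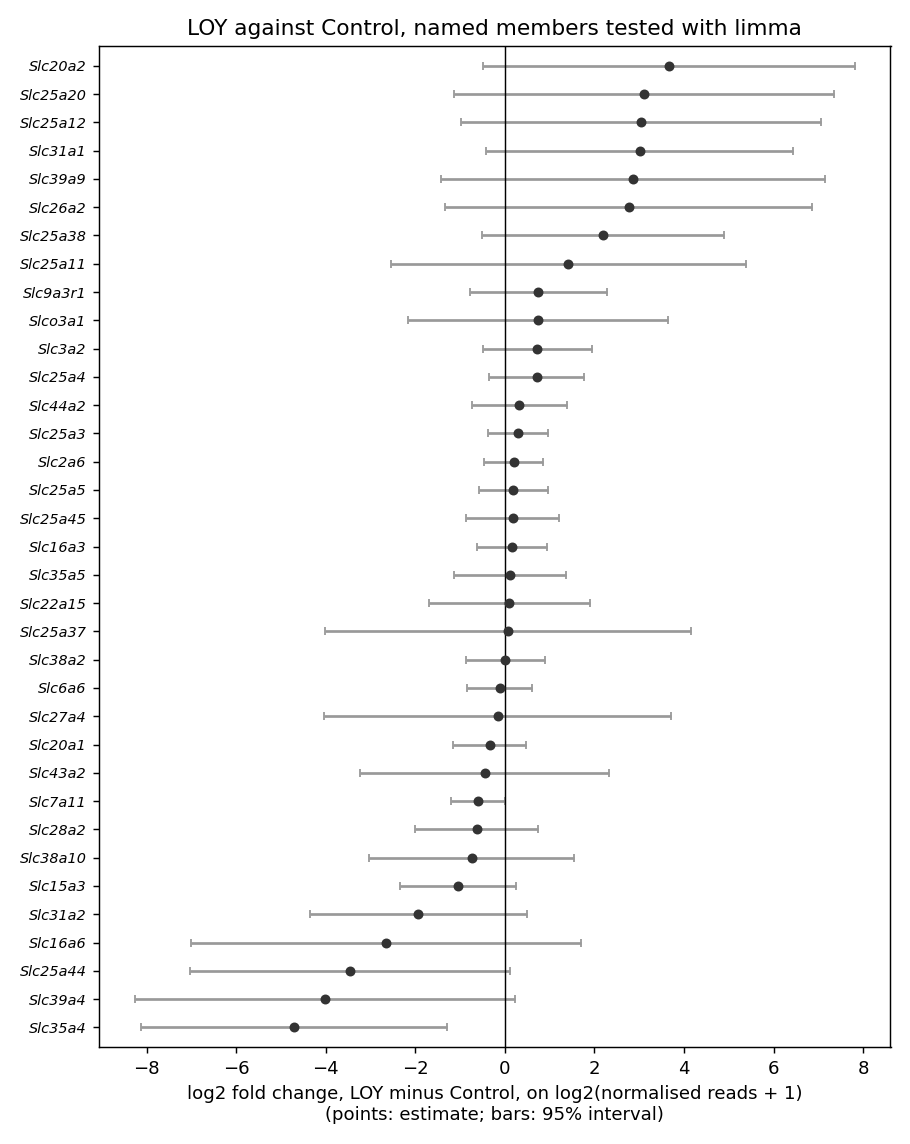
Log2 fold change, LOY minus Control on log2(normalised reads + 1), of 35 of the 36 named members that limma tested (horizontal axis), with points for the estimate and bars for the 95% interval. Intervals are narrow for well-read carriers such as Slc25a3 (SE 0.31) and wide for those at 0 in some libraries, such as Slc35a4 (SE 1.59), and all but those of Slc35a4 and Slc7a11 include 0.

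Of the carriers that export the end product of glycolysis, Slc16a3 had the highest level per kilobase. It encodes MCT4, the proton-coupled exporter of lactate in strongly glycolytic cells, and lies at chr11:120948480-120960868 on the plus strand (GRCm38). Its normalised reads were 4345 to 11375 in Control (median 7353) and 2837 to 13174 in LOY (median 8635). The groups overlapped over nearly their whole range, with a fold change of 0.16 (SE 0.36, 95% interval -0.62 to 0.93). Slc16a1, which encodes MCT1, a carrier that mediates lactate uptake or release in most tissues, was above 0 in 6 libraries and reached 397 in LOY 14. Per kilobase its mean was 14.4, against 1520 for Slc16a3. Slc16a6, another member of the monocarboxylate family, was 1.45 to 1202 in Control (median 421) and 0 to 854 in LOY (median 22.7). Its fold change of -2.65 (SE 2.03) did not pass the test. Of its exon bases, 23.5% are shared with other genes (Amz2, Arsg and Gm25540), and an unstranded library cannot separate reads over those bases. The chaperones that bring MCT proteins to the surface were read in every library: basigin (Bsg) at 962 ± 446 in Control and 1378 ± 612 in LOY, and embigin (Emb) at 4490 ± 1646 and 4475 ± 1683 (SD, n = 6 each). Their fold changes were 0.57 (SE 0.47) and -0.0053 (SE 0.29). Slc26a2, a sulphate transporter, had a median of 3.46 in Control and 202 in LOY, within ranges of 0.748 to 382 and 0 to 772, and its fold change was 2.76 (SE 1.91).

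Among the sugar carriers, 4 of 13 passed the value filter. Slc2a6, which encodes GLUT6, a hexose carrier of lysosomal membranes in myeloid cells, had the highest level per kilobase and lies at chr2:27021363-27027998 on the minus strand. It was 1026 to 2984 in Control (median 2482) and 2150 to 4528 in LOY (median 2280). Both groups were centred alike, and the ends of the range were single libraries, Control 8 at 1026 and LOY 5 at 4528. The fold change was 0.20 (SE 0.30, 95% interval -0.46 to 0.85). Slc50a1, a sugar efflux carrier, was 111 to 1088 in Control and 103 to 638 in LOY, with a fold change of -0.31 (SE 0.69). Slc37a3 and Slc37a2, relatives of the glucose 6-phosphate carrier, had estimates of 0.71 (SE 1.97) and -0.46 (SE 1.83). For Slc37a3, the authors' deposited table gives the opposite sign, -0.42.

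Of the amino acid and peptide carriers, 12 of 25 passed the filter, with 4 higher and 8 lower estimates in LOY and none called. Slc7a11, at chr3:49892526-50443614 on the minus strand, encodes the exchanger subunit xCT. It was the most precisely measured of the named members and the only well-read one with an unadjusted p under 0.05. Its normalised reads in Control were 2340, 2090, 1890, 1610, 1272 and 2143, in the order of libraries 2, 6, 7, 8, 11 and 12. In LOY they were 975, 1673, 1337, 1210, 1497 and 834, in the order of libraries 3, 4, 5, 10, 14 and 15. Only Control 11 and Control 8 lay within the LOY range. The group means were 1891 ± 391 and 1254 ± 315 (SD, n = 6 each), and the fold change was -0.60 (SE 0.28, 95% interval -1.20 to -0.0029), with an unadjusted p of 0.0490 and an adjusted p of 0.997 in limma. Leaving out each library in turn gave -0.71 to -0.49. Its heavy chain Slc3a2, which also serves other amino acid exchangers, was 236 to 2682 in Control (median 958) and 722 to 2918 in LOY (median 1400). The estimate of Slc3a2 had the opposite sign, 0.73 (SE 0.57), and the groups overlapped. Nfe2l2 and Atf4, regulators known to act on Slc7a11, had fold changes of -0.29 (SE 0.23) and -0.0029 (SE 0.34).

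Slc6a6, the taurine transporter, was 1224 to 2931 in Control (median 1623) and 826 to 3026 in LOY (median 1598). Taurine is plentiful in neutrophils, where it takes up hypochlorous acid. The fold change was -0.11 (SE 0.34), and the groups had the same centre. Slc38a2, a sodium-coupled carrier of small neutral amino acids such as glutamine and alanine, was 660 to 1979 in Control (median 1710) and 530 to 2352 in LOY (median 1816), with a fold change of 0.0057 (SE 0.41). Slc1a5, another sodium-dependent glutamine carrier, was 121 to 442 in Control (median 262) and 0 to 583 in LOY (median 428), with LOY 15 at 0. Its fold change was -0.67 (SE 1.39) in limma, while the authors' deposited table gives the opposite sign, 0.44. Slc15a3, a peptide and histidine carrier of endolysosomes, was 678 to 2501 in Control (median 1533) and 187 to 1586 in LOY (median 945). Its fold change of -1.04 (SE 0.60, 95% interval -2.33 to 0.25) did not pass the test, and 28.1% of its exon bases are shared with Tmem132a. Slc43a2, a neutral amino acid carrier, ranged from 51.6 to 1575 in Control and from 3.15 to 1724 in LOY (-0.45, SE 1.30). Slc38a10 ranged from 167 to 1276 and from 6.92 to 1006 (-0.74, SE 1.07). Spread over the libraries of a group was thus wide for all but a few of these carriers.

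The mitochondrial carriers were the class with the most tested members and had more higher than lower estimates in LOY. Of 33, 20 passed the filter, 16 with a higher and 4 with a lower estimate, with a median of 0.41, against 47 of 80 higher among all tested members. None was called by limma, none had an unadjusted p under 0.05, and none was called in the authors' table. Their sum was 9390 to 13965 normalised reads in Control (median 10063) and 12883 to 17456 in LOY (median 13884). Control 2 (13965) was the 1 Control library that reached into the LOY range. Without Slc25a4, the sums were 8778 to 13129 and 11699 to 15816. The number of higher estimates ran from 12 of 17 to 16 of 20 when 1 library was left out. The lowest share was 13 of 19, without Control 12, and the number was 14 of 20 without LOY 15 and 13 of 18 without LOY 10. It was 13 of 20 with edgeR, 22 of 33 with no filter and 19 of 33 with DESeq2, where 92 of all 166 members were higher. Heart muscle is rich in mitochondria, and the sum of cardiomyocyte markers, which had 14 of 15 higher estimates, none called by limma and 4 called in the authors' table, had its highest value (66849) in LOY 10, the library with the highest carrier sum (17456). LOY 15 had the next highest value of both sums, 18057 and 16158, but the lowest Slc25a4 of all libraries (342). LOY 3, with a cardiomyocyte sum of 15798, had the lowest carrier sum of the LOY libraries (12883). The cardiomyocyte sum was above the Control range of 3911 to 8703 in every LOY library but LOY 5. In LOY 5 it was 5903, within that range, while the carrier sum was 13716, below Control 2 alone among the Control libraries. Beyond these values, the part of heart muscle RNA in the carrier sum was not tested.

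**Figure D4:**
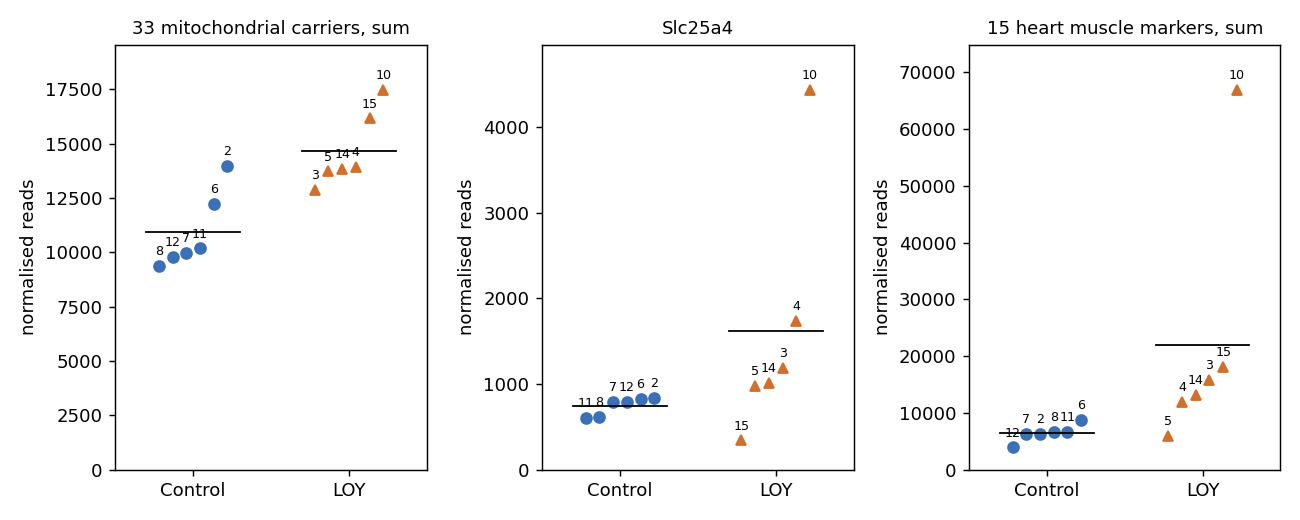
Normalised reads per library, with library numbers beside the points and a bar at the group mean, for the sum of 33 mitochondrial carriers, for Slc25a4 and for the sum of 15 heart muscle markers. LOY 10 is the highest library in each panel, at 17456, 4430 and 66849.

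The ADP and ATP exchangers and the phosphate carrier, which together feed ATP synthase, were the main members of this class. Slc25a5 (ANT2, chrX:36795651-36798807, plus strand) was 1611 to 4333 in Control (median 2989) and 1993 to 7438 in LOY (median 2987). Its medians were nearly equal, LOY 15 was the high library, and the fold change was 0.19 (SE 0.36). A pseudogene bears its name, so part of its reads could belong to the copy. Slc25a3, the phosphate carrier, was 1172 to 3901 in Control (median 2522) and 1939 to 4653 in LOY (median 2767), with a fold change of 0.29 (SE 0.31). Slc25a4 (ANT1, the exchanger typical of heart and skeletal muscle) was 607 to 835 in Control (median 790) and 342 to 4430 in LOY (median 1099). All LOY libraries but LOY 15 (342) were above the highest Control, and LOY 10 (4430) stood far above the rest. Its fold change was 0.71 (SE 0.49), which became 0.33 without LOY 10 and 1.07 without LOY 15.

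The carriers of metabolites and amino acids in this class were read less evenly. Slc25a11, the oxoglutarate and malate carrier, was 1.71 to 647 in Control (median 312) and 0 to 2548 in LOY (median 1085), and 5 of 6 LOY libraries, all but LOY 4 at 0, exceeded the highest Control. Its fold change was 1.42 (SE 1.85), and that single library made it 3.14 when left out. Slc25a38, which brings glycine into mitochondria for haem synthesis, was 1.27 to 1099 in Control (median 374) and 303 to 1612 in LOY (median 928), with a fold change of 2.19 (SE 1.26) that was 0.95 without Control 8. Slc25a12, an aspartate and glutamate carrier, had medians of 78.0 and 347 (3.03, SE 1.88), and Slc25a20, the carnitine and acylcarnitine carrier that admits fatty acids for oxidation, had medians of 5.46 and 261 (3.11, SE 1.98). Both were at or below 1.03 in at least 1 library of each group. Slc25a37, mitoferrin 1, which imports iron, was 6.74 to 1206 in Control and 0 to 1537 in LOY (0.071, SE 1.90), and leaving out 1 library moved the estimate from -0.70 to 1.45. Slc25a45 was 250 to 1266 in Control and 385 to 1053 in LOY (0.17, SE 0.48). In the other direction, Slc25a44, a carrier of branched-chain amino acids, was 2.18 to 765 in Control (median 43.3) and at or below 5.15 in LOY except for LOY 3 at 268 (-3.46, SE 1.67).

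Partners of these carriers that lie outside the Slc names had lower estimates in LOY, none past the test. The mitochondrial pyruvate carrier (Mpc1 and Mpc2) and the outer membrane channels Vdac1, Vdac2 and Vdac3 had 0 higher and 5 lower estimates, with a median of -0.40 and none called by limma. The fold changes were -0.022 (SE 0.42) for Mpc1, -0.34 (SE 0.69) for Mpc2 and -1.15 (SE 2.02) for Vdac1. They were -0.43 (SE 0.63) for Vdac2 and -0.40 (SE 1.59) for Vdac3, so each was smaller than its SE. Mpc1 was 1343 ± 703 in Control and 1374 ± 746 in LOY, and Mpc2 was 490 ± 416 and 386 ± 238 (SD, n = 6 each). Vdac3 was 246 ± 260 in Control and 328 ± 331 in LOY (SD, n = 6 each).

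Choline, phosphate and nucleoside carriers included several of the best-read members. Slc44a2 (chr9:21320698-21355028, plus strand), a choline transporter-like protein that bears an alloantigen of human neutrophils, was 806 to 4293 in Control (median 2585) and 1003 to 4884 in LOY (median 3397). The fold change was 0.32 (SE 0.49), well within the spread. Slc20a1, a sodium-coupled phosphate importer, was 781 to 1834 in Control (median 1288) and 506 to 1703 in LOY (median 1138), a fold change of -0.34 (SE 0.38). Its relative Slc20a2 was read in 2 Control libraries, at 281 in Control 11 and 10.2 in Control 2, and was at 0 in the other 4. In LOY it was 300, 488, 251, 111 and 2.06, in the order of libraries 3, 5, 10, 14 and 15, and 0 in LOY 4. Its fold change of 3.66 (SE 1.94, 95% interval -0.49 to 7.81) was the highest of the tested members and did not pass the test. Slc28a2, a sodium-coupled nucleoside importer, was 92.1 to 1389 in Control (median 983) and 278 to 821 in LOY (median 468), with a fold change of -0.63 (SE 0.64).

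The Slc35a carriers, most of which bring nucleotide sugars into the Golgi, gave the lowest unadjusted p among the members. Slc35a4 was 481, 5.99, 375, 21.5, 76.2 and 359 in Control libraries 2, 6, 7, 8, 11 and 12. In LOY it was 147 in LOY 3, 8.90 in LOY 5 and 0.706 in LOY 10, and 0 in the other 3 libraries. All Control libraries but Control 6 exceeded every LOY library except LOY 3. The fold change was -4.71 (SE 1.59, 95% interval -8.11 to -1.30), with an unadjusted p of 0.0102 and an adjusted p of 0.997 in limma. Slc35a5, read in every library, was 218 to 2323 in Control (median 1273) and 601 to 2333 in LOY (median 974). Its fold change was 0.12 (SE 0.58) in limma, and the sign turned to -0.14 with DESeq2 and -0.13 with edgeR.

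The metal carriers did not lean one way. Of 15 zinc transporters, 8 passed the filter, with 5 higher and 3 lower estimates in LOY and none called by limma. Slc39a4, a zinc importer of the plasma membrane, was 3.80 to 603 in Control (median 273), with 5 of 6 libraries at 181 or more. In LOY it was 327 in LOY 5, 799 in LOY 15 and at most 2.10 in the other 4 (-4.02, SE 1.98, unadjusted p = 0.0615 in limma). Slc39a9, another zinc carrier, had medians of 2.19 and 230 (2.86, SE 2.00). Of the copper carriers, Slc31a1, the importer CTR1, was 0 to 929 in Control (median 158) and 53.0 to 764 in LOY (median 476), with a fold change of 3.01 (SE 1.59). Slc31a2, an intracellular relative of it, was 331 to 886 in Control (median 720) and 2.06 to 863 in LOY (median 257), with a fold change of -1.93 (SE 1.13). The estimates of this pair of copper carriers had opposite signs, and neither passed the test. Slc48a1, a haem carrier, was 3.80 to 792 in Control and 2.82 to 816 in LOY (-0.60, SE 1.56).

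Of the organic ion carriers, Slc22a15, a carrier of organic cations and zwitterions, was 46.4 to 1412 and 192 to 1855 (0.10, SE 0.84). Slco3a1, an organic anion carrier, was 0.828 to 1177 in Control and 120 to 897 in LOY; its estimate was 0.74 (SE 1.36) in limma and -0.33 with both DESeq2 and edgeR. The scaffold protein gene Slc9a3r1, whose product tethers carriers and receptors to the cortical cytoskeleton, was 82.4 to 2108 in Control (median 1356) and 473 to 2671 in LOY (median 1931). The fold change of 0.75 (SE 0.72) became 0.049 without Control 8, the library at 82.4. Slc27a4, a fatty acid carrier and acyl-CoA synthetase, was 1.27 to 847 in Control and 0 to 908 in LOY (-0.16, SE 1.81).

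The authors' deposited table called 9 members at an adjusted p below 0.05, 6 higher and 3 lower in LOY. That is 7.32% of the 123 members with a p-value there, against 3.12% of all genes with one (303 of 9722); no test of that difference was made. None of the 9 passed the value filter of the limma fit, as against 23 of all 303 called genes, because each was at 10 normalised reads or more in 2 to 4 libraries. With no filter, limma gave all 9 an adjusted p of 0.916, with unadjusted p from 0.00763 to 0.122. The filter of edgeR left out all 9. A DESeq2 fit of the recovered reads called the same 303 genes. For the 9 members it gave the same log2 fold changes as the authors' table, such as -7.87 for Slc39a6, so it is not a separate line of support. The 9 calls did not hold in limma with no filter. The main limma fit and edgeR did not test these 9 members.

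**Figure D5:**
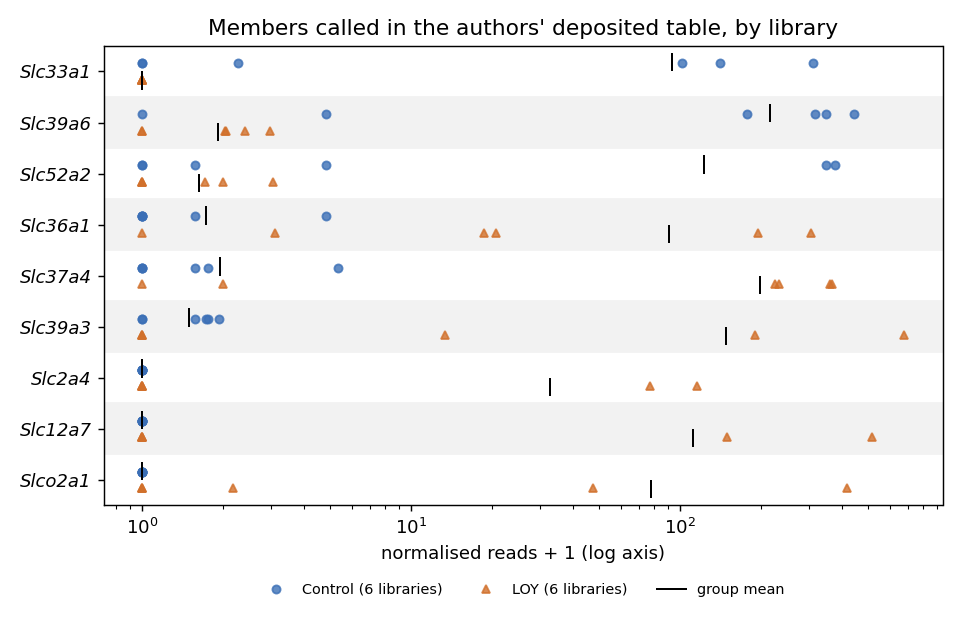
Normalised reads plus 1 on a log axis for the 9 members called in the authors' deposited table, ordered by its log2 fold change, with circles for Control, triangles for LOY and bars at group means; libraries at 0 lie on top of each other at the left edge. In the group with the higher mean, 2 to 4 libraries carry the reads and the rest lie near 0.

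Slc39a6 and Slc37a4 rested on 4 libraries each. Slc39a6, a zinc importer, was at 346, 317, 440 and 176 in Control 6, 7, 11 and 12, at 3.80 in Control 8 and at 0 in Control 2. All 6 LOY libraries were at 1.98 or less. The authors' deposited table gives a log2 fold change of -7.87 (adjusted p = 8.73e-06). Slc37a4 (chr9:44396852-44402968, plus strand) encodes the glucose 6-phosphate carrier of the endoplasmic reticulum, whose loss causes a glycogen storage disease with low neutrophil numbers. It was at 232, 360, 365 and 224 in LOY 3, 10, 14 and 15, at 0.989 in LOY 5 and at 0 in LOY 4. All 6 Control libraries were at 4.35 or less. The authors' deposited table gives 7.66 (adjusted p = 0.000177). For both genes the groups overlapped through the libraries at or near 0.

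The other 7 rested on fewer libraries or on lower reads. Slc36a1, an amino acid carrier of lysosomes, was at 305 in LOY 3, 193 in LOY 4, 17.7 in LOY 10, 19.6 in LOY 15 and 2.10 in LOY 14, and at 3.80 or less in Control. Slc39a3, a zinc importer, was at 679 in LOY 10, 188 in LOY 4 and 12.4 in LOY 15, and at 0.925 or less in Control. Slc52a2, a riboflavin carrier, was at 348 in Control 2 and 375 in Control 12 and at 3.80 or less elsewhere. The values given in the authors' deposited table were 7.05 (adjusted p = 0.0180) for Slc36a1, 8.18 (0.00479) for Slc39a3 and -7.61 (0.0163) for Slc52a2.

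The remaining 4 were at 0 in all libraries of a group, so the fold between their group means is a lower bound, taken against 3 reads in the whole of that group. That bound covers counting error alone and not the spread between libraries, so it does not bound the difference between the genotypes. With no filter, limma gave log2 fold changes of -3.88 (Slc33a1), 2.70 (Slc12a7), 2.56 (Slco2a1) and 2.19 (Slc2a4). Slc33a1, which carries acetyl-CoA into the endoplasmic reticulum, was at 310, 139, 101 and 1.27 in Control 2, 6, 11 and 8 and at 0 in LOY, at least 195-fold lower; 32.0% of its exon bases are shared with another gene. Slc12a7, a potassium and chloride cotransporter, was at 148 in LOY 3 and 513 in LOY 10 and 0 elsewhere, at least 261-fold higher in the LOY mean. Slco2a1, the prostaglandin carrier, was at 414 in LOY 3, 46.3 in LOY 15 and 1.16 in LOY 4 and 0 elsewhere, at least 182-fold higher. Slc2a4 encodes GLUT4, the insulin-responsive glucose carrier of heart muscle, skeletal muscle and fat. It was at 115 in LOY 3 and 76.3 in LOY 10 and 0 elsewhere, at least 75.4-fold higher. LOY 3 held more than 100 normalised reads of each of 5 of the 6 members called higher in LOY, all but Slc39a3, which was at 0 there, and its cardiomyocyte marker sum (15798) was above the Control range of 3911 to 8703; the part of heart muscle RNA in these values was not tested. Those 5 calls share that library.

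Libraries wholly at 0 in a group were not rare among the members. There were 12 members at 0 in all Control libraries (7.23%, against 4.11% of all genes) and 7 at 0 in all LOY libraries (4.22%, against 3.09%). In most, 1 or 2 libraries of the other group held the reads: Slc16a14 was at 490 in LOY 14 alone, and Slc22a18 at 308 in Control 6 alone. Besides Slc33a1 and Slco2a1, the exceptions, picked after their values were seen, were Slc4a7, a sodium bicarbonate cotransporter read in 5 Control libraries at 0.828 to 152 and in no LOY library, and Slc10a7, read in 5 LOY libraries at 1.05 to 159 and in no Control library.

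Other transporter genes, outside the Slc names, had no limma call either. Of 27 ATP-binding cassette transporters in the table, 7 were tested, with 1 higher and 6 lower estimates in LOY and none called by limma; 1 was called in the authors' table. Abcg1, a sterol exporter, had the most reads of them, at 1332 ± 874 in Control and 1464 ± 640 in LOY (SD, n = 6 each). Of 16 major facilitator proteins named outside the pattern, 11 were tested, with 5 higher and 6 lower. Unc93b1, which escorts endosomal Toll-like receptors, was 4237 ± 1261 and 4764 ± 1773, while Mfsd14b and Mfsd6 had the lowest unadjusted p in that list, with fold changes of -2.57 (SE 1.27) and -2.66 (SE 1.39). The sodium pump, whose gradient drives many carriers, had 5 tested genes, with 2 higher and 3 lower. Its subunit Atp1b3 was 1405 ± 904 in Control and 797 ± 334 in LOY (SD, n = 6 each). Of 12 regulators of transporter genes, 11 were tested, with 5 higher and 6 lower estimates and none called. Hif1a, which drives Slc16a3 in low oxygen, was 467 ± 327 in Control and 709 ± 471 in LOY (0.76, SE 0.63), and Mtf1, the zinc-sensing factor, was read in 8 libraries.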

How the data were processed

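The members and gene lists were chosen with earlier results of these data known. Per the labels' protocols, cDNA of 800 sorted cells was amplified with SMART-Seq v4 and made into Nextera XT libraries. These carry neither strand nor molecular identifiers, so reads over shared exon bases cannot be assigned by strand (52 members share exon bases with another gene) and PCR copies count. The submitters' processing notes name featureCounts (Subread 1.5.2), STAR 2.5.2b, Trimmomatic 0.36 and bcl2fastq 2.17, with GRCm38 and mm10 as builds. The authors deposited signal values, which are each gene's reads after division by a scaling factor of the library; every value was a whole multiple of a read (100% within 0.01), which gave the reads back. The authors also deposited a log2 fold change (LOY over Control), a p-value and an adjusted p-value per gene; the sources used here do not give the tool behind them. Genes outside the 11911 listed were not analysed here. Coordinates and exon lengths are from GENCODE M21 (GRCm38), which matched all 166 members.

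The test was limma 3.58.1 (trend, robust; R 4.3.3) on log2(normalised reads + 1), genotype alone, 12 libraries, genes of at least 10 in at least 6 libraries, Benjamini-Hochberg over 6951 genes, threshold 0.05. Alternatives were DESeq2 1.42.0 and edgeR 4.0.16 on the recovered counts, quantile normalization, no filter, a mean of at least 50, pseudocounts of 0.5 and 5, array weights and each library left out. The named members are the 25 of highest mean, those called in limma or the authors' table, the 8 of smallest unadjusted p in each direction and the highest of each class. Of the 47 so named, Slc14a1 and Slc17a5, the highest of their classes, had means of 12.1 and 53.1. The values of 1 other named member and 1 gene of the lists are not reported here. The fit was tested on simulated counts of 11911 genes. Folds against a group at 0 use 3 reads in the whole group as the floor, which covers counting error only.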

Additional observations from a re-analysis of the deposited data

Results flagged for a closer look

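In 11 of 72 groups of 6 libraries, 1 library of a named member lay far from the rest of its group (its gap to the nearest library, as a share of the group's range, was above Dixon's 95% critical value). Chance alone would flag about 1 group in 20 only if the values were normally distributed. In groups such as Slc20a2 in Control, all libraries but 1 were at 10.2 or less. That rate therefore cannot be used to judge the 11 flags. The single high libraries were LOY 14 for Slc25a3 (4653 normalised reads, the next 2902), LOY 5 for Slc2a6 (4528, 2403) and Slc35a5 (2333, 1205), LOY 10 for Slc25a4 (4430, 1732) and LOY 4 for Slc16a6 (854, 186). LOY 3 was the high library for Slc35a4 (147, 8.90) and Slc25a44 (268, 5.15). In Control, they were Control 12 for Slc25a37 (1206, 256), Control 11 for Slc20a2 (281, 10.2) and Control 7 for Slc31a1 (929, 307). The 1 single low library was Control 8 for Slc2a6 (1026, the next 2373).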

How the results depend on the processing

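The count of called members (0) became 9 with DESeq2 and was 0 under every other alternative run. The count of all called genes (2) was 303 with DESeq2, 0 with edgeR, a mean of at least 50 or no filter, and 0 to 4 with 1 library left out. The 33 members read in all 12 libraries were 19 at a minimum of 10 and 15 at 100. Of 696 alternative fold changes of 36 named members, 652 kept their sign and their side of the threshold. The 44 that turned sign came from 12 members: 34 with a library left out and 10 elsewhere. With DESeq2 and edgeR, the values were -0.14 and -0.13 (Slc35a5), 0.11 and 0.10 (Slc43a2), -0.33 and -0.33 (Slco3a1) and 0.22 and 0.20 (Slc27a4). Slc25a37 was -0.0097 with array weights and -0.10 with a pseudocount of 0.5. Leaving out 1 library gave -0.050 to 0.33 for Slc25a5, -0.027 to 0.28 for Slc2a6, -0.29 to 0.081 for Slc6a6, -0.23 to 0.30 for Slc38a2 and -0.29 to 0.39 for Slc35a5. It gave -0.077 to 0.39 for Slc25a45, -0.54 to 0.44 for Slc22a15, -1.04 to 0.79 for Slc43a2 and -0.70 to 1.16 for Slco3a1. It gave -1.14 to 0.25 for Slc38a10, -0.70 to 1.45 for Slc25a37 and -1.40 to 1.28 for Slc27a4. The cause was not tested. The count of higher mitochondrial carrier estimates under these settings and the lengths of the longest transcripts were added after seeing the data. No paired analysis was possible because the groups share no replicate number. The reads per library limit what can be said of members at 0 in some libraries.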
